A study of Mus musculus with 13 samples.

Results

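The genes described here encode the phase II conjugation enzymes of the liver, the glutathione S-transferases (Gst), UDP-glucuronosyltransferases (Ugt) and sulfotransferases (Sult), and the carboxylesterases (Ces). They were taken by symbol alone: every gene whose symbol begins with Gst and a class letter (a, m, p, t, o or z), with Ugt and 1, 2, 3 or 8, with Sult and a number, or with Ces and a number, and which has an array feature annotated to that symbol only. This gave 57 of the 18820 genes measured with 1 symbol: 16 Gst, 10 Ugt, 15 Sult and 16 Ces genes. Of these, 41 (14 Gst, 9 Ugt, 6 Sult and 12 Ces) had a mean over all livers above the median of all features, which was 3.76 on the log2 scale.

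Livers came from mice on the C57BL/6J background at 3 or 9 weeks of age, wild type or lacking Sel1L in hepatocytes (LiSel1lKO in the sample titles). In the latter, exon 6 of Sel1l is flanked by loxP sites on both alleles and removed by Cre recombinase under the albumin promoter, which is active in hepatocytes. The 3-week groups hold 3 wild-type and 4 Sel1L-deficient livers, and the 9-week groups 3 and 3, each from a separate mouse fasted for 5 to 6 hours in the morning. Whether the wild-type mice carried floxed alleles or Cre, and the sex of the mice, are not given in the sources used here. Values are deposited RMA log2 expression, so 1 unit is a 2-fold difference. P-values weigh a difference against the spread between these mice within groups, estimated over all groups together.

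Sel1L is the adaptor of the Hrd1 ubiquitin ligase, which marks misfolded proteins of the endoplasmic reticulum (ER) for degradation. Phase II enzymes make lipophilic compounds soluble for excretion by joining them to glutathione, glucuronic acid or sulfate. UDP-glucuronosyltransferases and most carboxylesterases sit in or face the lumen of the ER of hepatocytes, whereas the glutathione S-transferases and sulfotransferases named here are mainly cytosolic. Carboxylesterases cleave ester and amide bonds of drugs and lipids, and the products are often substrates for conjugation. Several of these genes, among them the pi-class Gst genes and Sult2a1, are known as sex-biased in adult mouse liver.

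Sel1l itself read 8.94, 8.77 and 8.85 in wild-type and 8.42, 7.90, 7.20 and 7.10 in Sel1L-deficient livers at 3 weeks, and 8.78, 8.70 and 8.72 against 7.90, 7.54 and 7.72 at 9 weeks. The genotypes did not overlap at either age, with means 2.31-fold lower at 3 weeks and 2.02-fold lower at 9 weeks, although the gene did not pass the test (limma, adjusted p = 0.391 and 0.108). Arrays of a group correlated between 0.9828 and 0.9884 across features. The 7 measured hepatocyte markers, among them Alb and Ttr, averaged between 12.34 and 12.57 in each of the 13 livers. The 7 markers of pancreas and intestine averaged between 3.40 and 3.68. By their mean over the 13 livers, 5 of them, Cpa1, Prss2, Ctrb1, Vil1 and Lct, were below the median of all features.

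At 9 weeks 4 Ugt2b genes and 3 Ces genes were lower in Sel1L-deficient liver, and no Gst or Sult gene passed the test. Ugt2b1, Ugt2b5, Ugt2b36, Ugt2b38, Ces1e, Ces1f and Ces2b lay 1.65-fold to 2.54-fold below wild type. This is 7 of 57 lower and 0 of 57 higher (limma, Benjamini-Hochberg adjusted p under 0.05), beside 0.484% lower and 1.03% higher among all 35556 features. Counted by groups that do not overlap, 19 members were lower and 7 higher, where 9.34% of all genes with 1 symbol were lower and 11.4% higher. In bulk liver RNA, fewer cells of a type and less RNA per cell cannot be told apart.

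**Figure D1:**
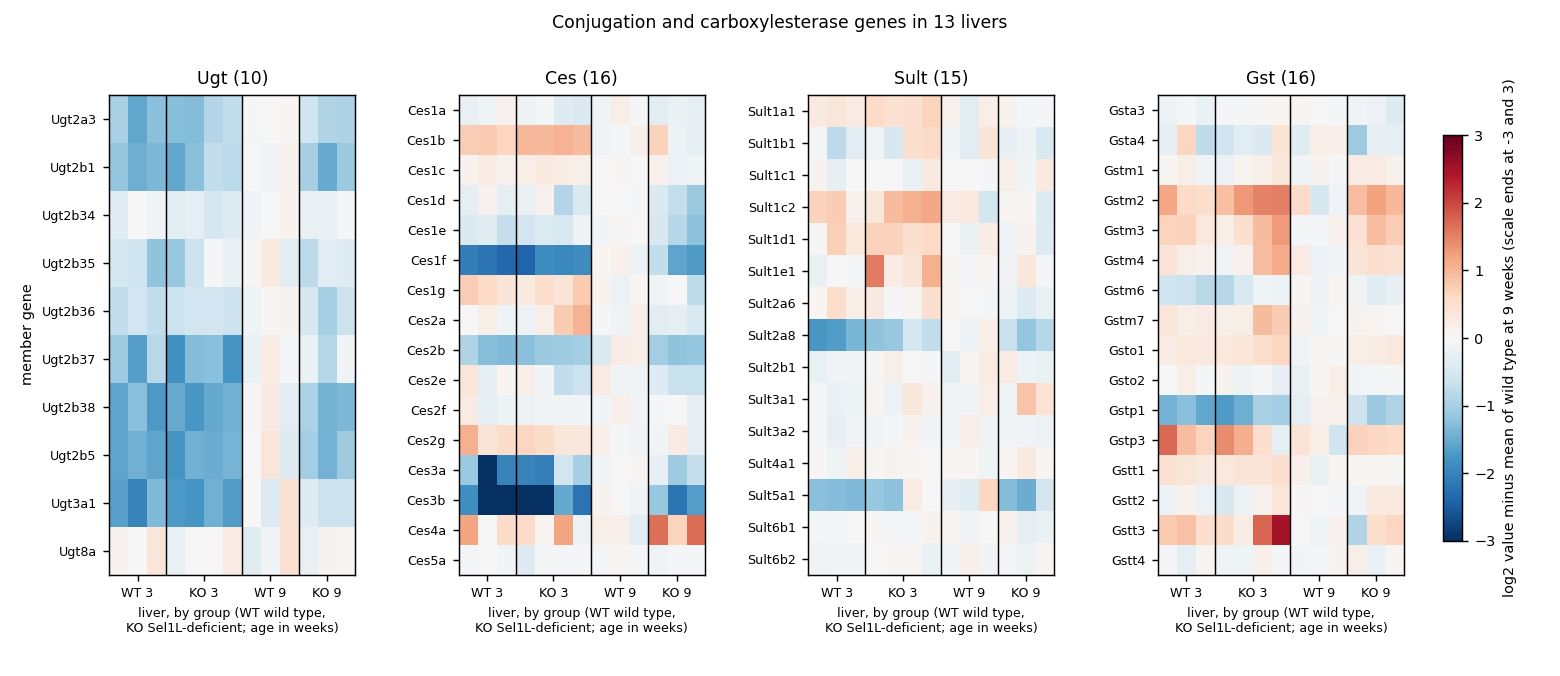
Log2 value of each of the 57 genes in each of the 13 livers, minus the mean of the 3 wild-type livers at 9 weeks, by family (panels) and group (columns between black lines). Blue marks a lower and red a higher value, and the colour scale ends at -3 and 3. In the Ugt panel, most genes are blue at 3 weeks in both genotypes and in the Sel1L-deficient livers of 9 weeks. Ugt2b1 and Ugt2b36 are about as blue in the latter as in the Sel1L-deficient livers of 3 weeks. Ugt2b34 and Ugt8a are pale throughout.

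The 7 calls rest on few livers. They fell to 0 when Sel1L-deficient replicate 2 or 3 at 9 weeks was left out, to 1 (Ugt2b5) without wild-type replicate 2, to 4 of the 7 without wild-type replicate 1 or 3, and the count went to 10 without Sel1L-deficient replicate 1; with only the 6 livers of 9 weeks in the fit it was 0. The count over all features, 539, moved as well: it was 30 and 18 without Sel1L-deficient replicates 2 and 3, 80, 140 and 219 without wild-type replicates 2, 1 and 3, 1178 without Sel1L-deficient replicate 1, and 1 with only the 6 livers of 9 weeks, so that the background shares above are no steadier than the members' count.

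The genotype difference of all 7 kept its sign under every alternative run. The 6 livers of 9 weeks also carry a number in their array names, 5 or 7, taken here as a plate column. Within column 5 (2 Sel1L-deficient livers, 1 wild type) the 7 differences lay between -1.43 and -0.61, and within column 7 (1 against 2) between -1.57 and -0.82, all on the log2 scale.

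All 10 measured Ugt genes had a difference below 0 at 9 weeks, as had 9751 of the 18820 genes with 1 symbol. For Ugt8a it was -0.01 ± 0.20. The family median was -0.639 against -0.008 over all genes with 1 symbol, and 4 of the 10 were called. In the 3 Sel1L-deficient livers, 10, 9 and 9 of the 10 genes lay below the wild-type mean of that age, with medians of -0.56, -0.88 and -0.65. The 4 called genes and 4 further members, Ugt2b34, Ugt2b35, Ugt2b37 and Ugt2a3, lie next to one another on chromosome 5 in the RefSeq annotation, in the order Ugt2b34, Ugt2b1, Ugt2b35, Ugt2b36, Ugt2b5, Ugt2b37, Ugt2a3, Ugt2b38. Enzymes of the Ugt2b group glucuronidate steroids, bile acids and many drugs. Their sequences are close to one another, so signal may be shared between features, and single Ugt2b genes are uncertain one by one.

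The 250 bases before the annotated start of 5 of these genes are shown because 3 of the called genes, Ugt2b36, Ugt2b5 and Ugt2b38, share a run of 22 bases there, and because Ugt2b37, with the same run, and Ugt2b1, without it, differ in their calls. Sequences are from RefSeq (GRCm38.p6), 5′ to 3′ on the strand of the gene, and capitals mark the shared run.
Ugt2b36 (chr5:87092556-87092805, minus strand): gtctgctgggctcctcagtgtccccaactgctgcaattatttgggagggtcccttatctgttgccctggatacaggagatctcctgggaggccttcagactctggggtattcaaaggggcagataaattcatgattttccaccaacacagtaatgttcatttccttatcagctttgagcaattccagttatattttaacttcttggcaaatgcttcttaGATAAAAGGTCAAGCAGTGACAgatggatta
Ugt2b5 (chr5:87140341-87140590, minus strand): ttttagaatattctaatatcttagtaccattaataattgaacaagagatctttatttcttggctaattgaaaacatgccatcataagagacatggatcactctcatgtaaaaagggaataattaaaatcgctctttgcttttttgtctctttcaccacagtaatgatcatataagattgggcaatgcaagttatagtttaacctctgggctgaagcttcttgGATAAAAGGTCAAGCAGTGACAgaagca
Ugt2b38 (chr5:87424204-87424453, minus strand): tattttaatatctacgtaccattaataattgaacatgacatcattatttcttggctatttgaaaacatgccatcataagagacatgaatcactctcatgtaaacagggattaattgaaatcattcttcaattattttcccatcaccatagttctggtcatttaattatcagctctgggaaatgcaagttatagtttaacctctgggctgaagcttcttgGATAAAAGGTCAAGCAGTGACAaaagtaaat
Ugt2b37 (chr5:87254789-87255038, minus strand): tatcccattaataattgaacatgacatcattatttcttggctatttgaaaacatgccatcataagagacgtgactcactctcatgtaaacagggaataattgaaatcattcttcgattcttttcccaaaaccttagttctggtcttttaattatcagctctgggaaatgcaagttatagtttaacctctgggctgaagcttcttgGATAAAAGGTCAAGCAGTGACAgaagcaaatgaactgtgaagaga
Ugt2b1 (chr5:86926504-86926753, minus strand): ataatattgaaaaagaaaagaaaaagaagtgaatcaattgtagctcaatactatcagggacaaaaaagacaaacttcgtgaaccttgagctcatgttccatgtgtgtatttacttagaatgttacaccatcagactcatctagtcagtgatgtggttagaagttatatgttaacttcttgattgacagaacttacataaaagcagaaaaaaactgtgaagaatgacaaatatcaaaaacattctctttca

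The run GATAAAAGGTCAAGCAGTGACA lies 31 to 10 bases before the start of Ugt2b36 and Ugt2b38, 28 to 7 before that of Ugt2b5 and 45 to 24 before that of Ugt2b37. No other gene among the 27025 of the RefSeq promoter table holds it, so it is found in 4 genes (0.0148%). The run of identical bases between Ugt2b38 and Ugt2b5 extends to 62 bases. Ugt2b37, which was not called, holds the same 62 bases, so the longer run does not mark the called genes either. In pairwise alignments of the 250 bases, Ugt2b37 and Ugt2b38 were 84.8% identical, Ugt2b38 and Ugt2b5 81.5%, Ugt2b36 and Ugt2b5 59.3%, and Ugt2b1 and Ugt2b5 47.7%. The run was sought after the calls were known, and it describes these sequences only: Ugt2b37 carries it without a call, and Ugt2b1 was called without carrying it.

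Ugt2b38 read 7.76, 8.00 and 7.41 in wild-type and 6.77, 6.31 and 6.37 in Sel1L-deficient livers at 9 weeks, a log2 difference of -1.24 ± 0.18 (SE), 2.36-fold lower (limma, adjusted p = 0.0123). Ugt2b5 read 9.74, 10.10 and 9.35 against 8.68, 8.31 and 8.66, a difference of -1.18 ± 0.18, 2.27-fold lower (limma, adjusted p = 0.0139). In both genes the lowest wild-type liver stayed above the highest Sel1L-deficient liver. Ugt2b1 read 10.57, 10.46 and 10.68 against 9.57, 9.06 and 9.46, a difference of -1.21 ± 0.21, 2.31-fold lower (limma, adjusted p = 0.0227). Ugt2b36 read 9.77, 9.93 and 10.01 against 9.39, 8.91 and 9.25, a smaller difference of -0.72 ± 0.12, 1.65-fold lower (limma, adjusted p = 0.0175). Sel1L-deficient replicate 2 was the lowest liver for all 4 genes.

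Among the other 6 Ugt genes, Ugt2a3 came nearest to the threshold. It read 9.95, 10.02 and 10.09 in wild-type and 9.42, 9.12 and 9.09 in Sel1L-deficient livers, without overlap (-0.81 ± 0.18, limma, adjusted p = 0.0527). Ugt2b37 overlapped, with 6.04, 6.46 and 6.19 against 6.03, 5.37 and 6.14 (-0.38 ± 0.26). Ugt3a1, of a subfamily known to transfer sugars other than glucuronic acid, read 8.89, 8.51 and 9.34 against 8.53, 8.26 and 8.27 (-0.56 ± 0.21, limma, adjusted p = 0.249). Ugt2b34 differed by -0.16 ± 0.11 and Ugt2b35 by -0.49 ± 0.29. Ugt8a, the ceramide galactosyltransferase of myelin-forming cells, was at 1.68 to 2.48 in all 6 livers, below every array median (3.72 to 3.81).

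**Figure D2:**
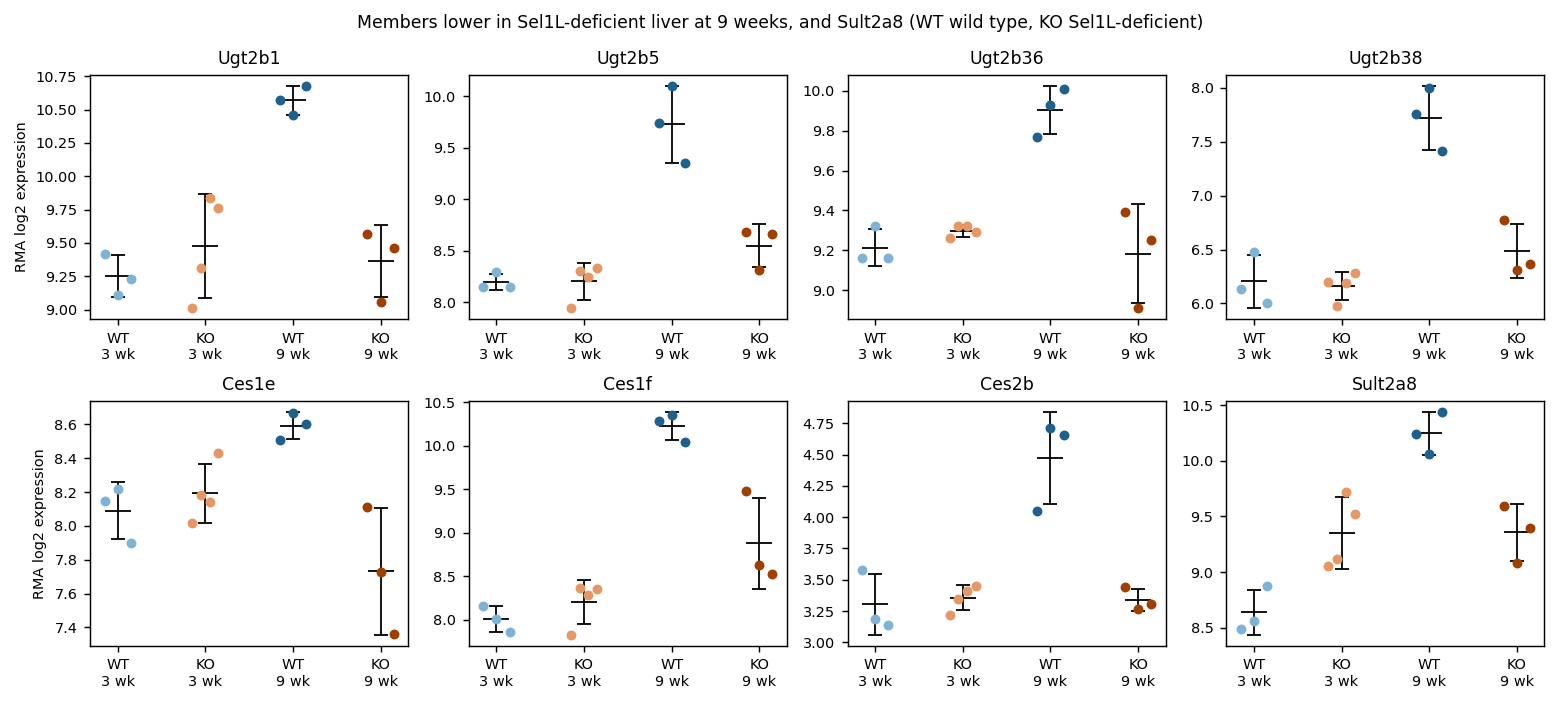
RMA log2 expression of the 7 called genes and of Sult2a8 in each liver (points) with the group mean and SD (bars), by genotype and age. Each panel has its own log2 axis, which does not start at 0. In every panel the wild-type livers at 9 weeks lie above the Sel1L-deficient livers of that age and above both groups at 3 weeks.

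Of the 16 carboxylesterases, 14 had a difference below 0 at 9 weeks, as had 9751 of the 18820 genes with 1 symbol. The family median was -0.321, against -0.008 over all genes with 1 symbol. By limma 3 of the 16 were called lower and 0 higher, beside 0.484% and 1.03% of all features. The carboxylesterase genes lie in a pair of clusters on chromosome 8, and the called Ces1e and Ces1f are neighbours. Ces1f, an ER enzyme that hydrolyses triacylglycerol, read 10.28, 10.35 and 10.04 in wild-type and 9.48, 8.63 and 8.53 in Sel1L-deficient livers, a log2 difference of -1.35 ± 0.23, 2.54-fold lower (limma, adjusted p = 0.022). Ces1e, known as egasyn, which holds beta-glucuronidase in the ER, read 8.51, 8.67 and 8.60 against 8.11, 7.73 and 7.36, a difference of -0.86 ± 0.17, 1.81-fold lower (limma, adjusted p = 0.0362). Sel1L-deficient replicate 1 was the liver nearest to wild type in both genes, and it also had the highest Sel1l value of its group, 7.90; whether these are related was not tested.

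Ces1e was the least stable of the calls, with an adjusted p above 0.05 under 11 of 21 alternatives, among them the plate column as a block (limma, adjusted p = 0.0594). Ces2b read 4.05, 4.71 and 4.66 against 3.44, 3.27 and 3.31, a difference of -1.13 ± 0.17, 2.19-fold (limma, adjusted p = 0.0141). The Sel1L-deficient values of Ces2b lie below the median of every array, so that this difference is a lower bound if they are background.

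The largest difference of the family was not called. Ces3b read 11.07, 10.98 and 10.85 in wild-type and 9.82, 8.78 and 9.32 in Sel1L-deficient livers at 9 weeks, without overlap (-1.66 ± 0.60, limma, adjusted p = 0.23); its spread at 3 weeks was wide, with SDs of 1.12 and 0.99. Its neighbour Ces4a stood the other way, at 5.18, 5.14 and 4.67 against 6.64, 5.66 and 6.67 (1.33 ± 0.40, limma, adjusted p = 0.139). Ces1d, a triacylglycerol hydrolase that feeds lipid into lipoproteins, read 10.83, 10.83 and 10.76 against 10.38, 10.09 and 9.69 (-0.75 ± 0.24, limma, adjusted p = 0.163). These 3 genes separated the genotypes liver by liver but missed the threshold. Ces3a differed by -0.66 ± 0.48. Ces1c, the esterase secreted into plasma, was at 11.78, 11.83 and 11.79 against 11.93, 11.63 and 11.66, so that the groups overlapped (-0.06 ± 0.09).

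None of the 15 sulfotransferases was called at 9 weeks by limma. Sult2a8 and Sult5a1 had an unadjusted p under 0.05, 2 of 15 where 15.8% of all genes with 1 symbol did, which is no more than that share. Sult2a8, which sulfates bile acids, read 10.24, 10.06 and 10.44 in wild-type and 9.59, 9.08 and 9.40 in Sel1L-deficient livers, without overlap (-0.89 ± 0.20, 1.86-fold lower, limma, adjusted p = 0.0509). Sult5a1 read 4.83, 4.72 and 5.69 against 3.79, 3.59 and 4.53 (-1.11 ± 0.41, limma, adjusted p = 0.241). The phenol sulfotransferase Sult1a1 differed by 0.01 ± 0.13 and Sult1d1, which sulfates catecholamines and other small phenols, by -0.13 ± 0.18. The family median was -0.102, and 9 of the 15 genes had means below the median of all features.

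The glutathione S-transferases had no called member at 9 weeks by limma, with a family median of 0.071. An unadjusted p under 0.05 was reached by 5 of the 16 (3 higher, 2 lower), where 8.91% of all genes with 1 symbol reached it higher and 6.85% lower. The differences of Gstm1 to Gstm4 were above 0 and that of Gstp1 was below 0. The other mu-class members did not follow Gstm1 to Gstm4, with -0.24 ± 0.17 for Gstm6 and 0.06 ± 0.19 for Gstm7. Gstm2 read 8.66, 7.61 and 7.99 in wild-type and 9.01, 9.29 and 9.05 in Sel1L-deficient livers, without overlap (1.03 ± 0.26, 2.04-fold, limma, adjusted p = 0.0846). Gstm3 read 9.85, 9.85 and 10.03 against 10.34, 10.84 and 10.64 (0.69 ± 0.24, limma, adjusted p = 0.21), and its other feature gave 1.03 ± 0.35 (limma, adjusted p = 0.2). Gstm1 was at 11.50, 11.68 and 11.55 against 11.83, 11.82 and 11.71, a difference of 0.21 ± 0.13 that likewise left no overlap. The mu-class genes are neighbours on chromosome 3 and close in sequence, so these values may share signal.

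Gstp1, a pi-class enzyme that conjugates electrophiles such as reactive drug metabolites, read 12.11 ± 0.23 (SD, n = 3) in wild-type and 11.24 ± 0.25 (SD, n = 3) in Sel1L-deficient livers at 9 weeks, where the lowest wild-type liver (11.84) lay above the highest Sel1L-deficient liver (11.49) (-0.87 ± 0.21, 1.83-fold lower, limma, adjusted p = 0.0633). A pair of further features, each annotated to both Gstp1 and Gstp2 and thus outside the selection, passed the test with differences of -0.92 ± 0.19 and -0.90 ± 0.18 (limma, adjusted p = 0.0367 and 0.0375). The first of these read 10.32, 10.77 and 10.55 against 9.84, 9.46 and 9.57. Gstp3, the neighbour of Gstp2, stood the other way, at 8.37, 8.15 and 7.36 against 8.66, 8.59 and 8.56 (a difference of 0.64, not called). Gsta3, an alpha-class enzyme that detoxifies aflatoxin epoxide in mice, read 11.60, 11.54 and 11.50 against 11.43, 11.38 and 11.14 (-0.23 ± 0.09, limma, adjusted p = 0.25).

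**Figure D3:**
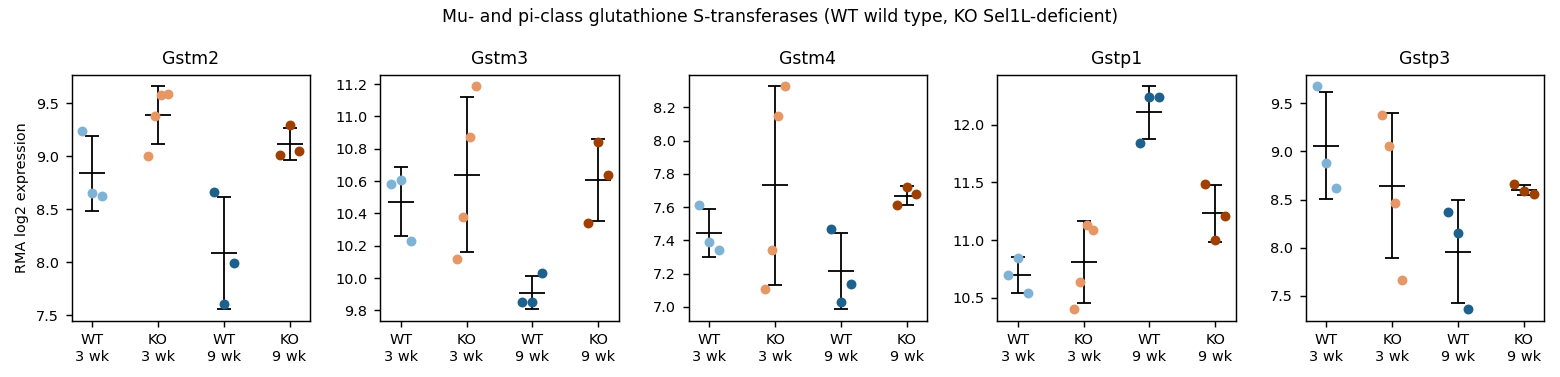
RMA log2 expression of 3 mu-class and 2 pi-class glutathione S-transferase genes in each liver (points) with the group mean and SD (bars). Axes are log2, differ between panels and do not start at 0. At 9 weeks Gstm2, Gstm3, Gstm4 and Gstp3 are higher and Gstp1 is lower in Sel1L-deficient liver without overlap, and none of these 5 differences passed the test.

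At 3 weeks no member was called (0 of 57, limma), as for 0% of all features, and the smallest adjusted p of a member was 0.439. An unadjusted p under 0.05 was reached by 3 of the 57, Sult2a8, Sult1e1 and Gstm2, each with a difference above 0; among all genes with 1 symbol 7.36% reached it (3.43% higher, 3.93% lower), a larger share. By groups that do not overlap, 7 members were higher and 0 lower, where 3.67% of all genes with 1 symbol were higher and 3.79% lower. Family medians were 0.232 for Sult, 0.133 for Gst, 0.002 for Ugt and 0.00 for Ces.

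Sult2a8 read 8.49, 8.56 and 8.87 in wild-type and 9.05, 9.12, 9.72 and 9.52 in Sel1L-deficient livers at 3 weeks (0.71 ± 0.18). Sult1e1, the estrogen sulfotransferase, read 1.89, 2.14 and 2.08 against 3.67, 2.33, 2.50 and 3.18 (0.88 ± 0.27), each value below the array medians; it was chosen after its values were seen. Sult5a1 read 3.83, 3.79 and 3.76 against 3.94, 3.86, 5.33 and 5.07 (0.75 ± 0.38). In each of these genes the Sel1L-deficient livers ranged more widely than the wild-type livers. Sult1a1, at 9.97, 10.08 and 9.96 against 10.30, 10.17, 10.20 and 10.37, differed by 0.25 ± 0.12. The groups also did not overlap for Ces1b (0.27 ± 0.19), Gsta3 (0.15 ± 0.08) and Sult2b1 (0.19 ± 0.14). Sult2b1, with a mean of 1.95 over all livers, was below the median of all features.

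The 4 Sel1L-deficient livers of 3 weeks were not alike. Among the 14 Gst genes above the median of all features, replicates 3 and 4 had 12 and 13 above the wild-type mean, with medians of 0.32 and 0.46, whereas replicates 1 and 2 had 4 and 7, with medians of -0.16 and -0.03. Gstm4, for example, read 8.15 and 8.33 in replicates 3 and 4 and 7.11 and 7.34 in replicates 1 and 2, against 7.61, 7.39 and 7.34 in wild type. Gstt3 read 8.26 and 9.01 in replicates 3 and 4 against 7.07 and 6.74 in replicates 1 and 2; both genes were chosen after their values were seen. Of the 6 Sult genes above the median, 6 of 6 lay above the wild-type mean in replicates 3 and 4 and 5 of 6 in replicates 1 and 2. Replicates 3 and 4 also had the lowest Sel1l values, 7.20 and 7.10. Whether these patterns are related was not tested.

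Markers of other cells also differed between the genotypes at 3 weeks, without a call. All 8 Kupffer cell markers had a difference below 0 (median -0.338), with liver means of 8.02 to 8.16 in wild-type and 7.55 to 7.88 in Sel1L-deficient livers, as had all 6 stellate cell markers (median -0.256, 7.78 to 7.85 against 7.43 to 7.71). Both measured red cell markers, Slc4a1 and Alas2, had a difference below 0 (median -1.257), with liver means of 6.00 to 6.95 in wild-type and 4.83 to 5.93 in Sel1L-deficient livers, without overlap. Of 7 endothelial markers, 5 had a difference below 0 (median -0.201), and the liver means overlapped. Of 10 pericentral hepatocyte markers, 9 had a difference above 0 (median 0.209, 8.43 to 8.55 against 8.62 to 8.95). Their part in the Sult and Gst values at 3 weeks was not tested.

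**Figure D4:**
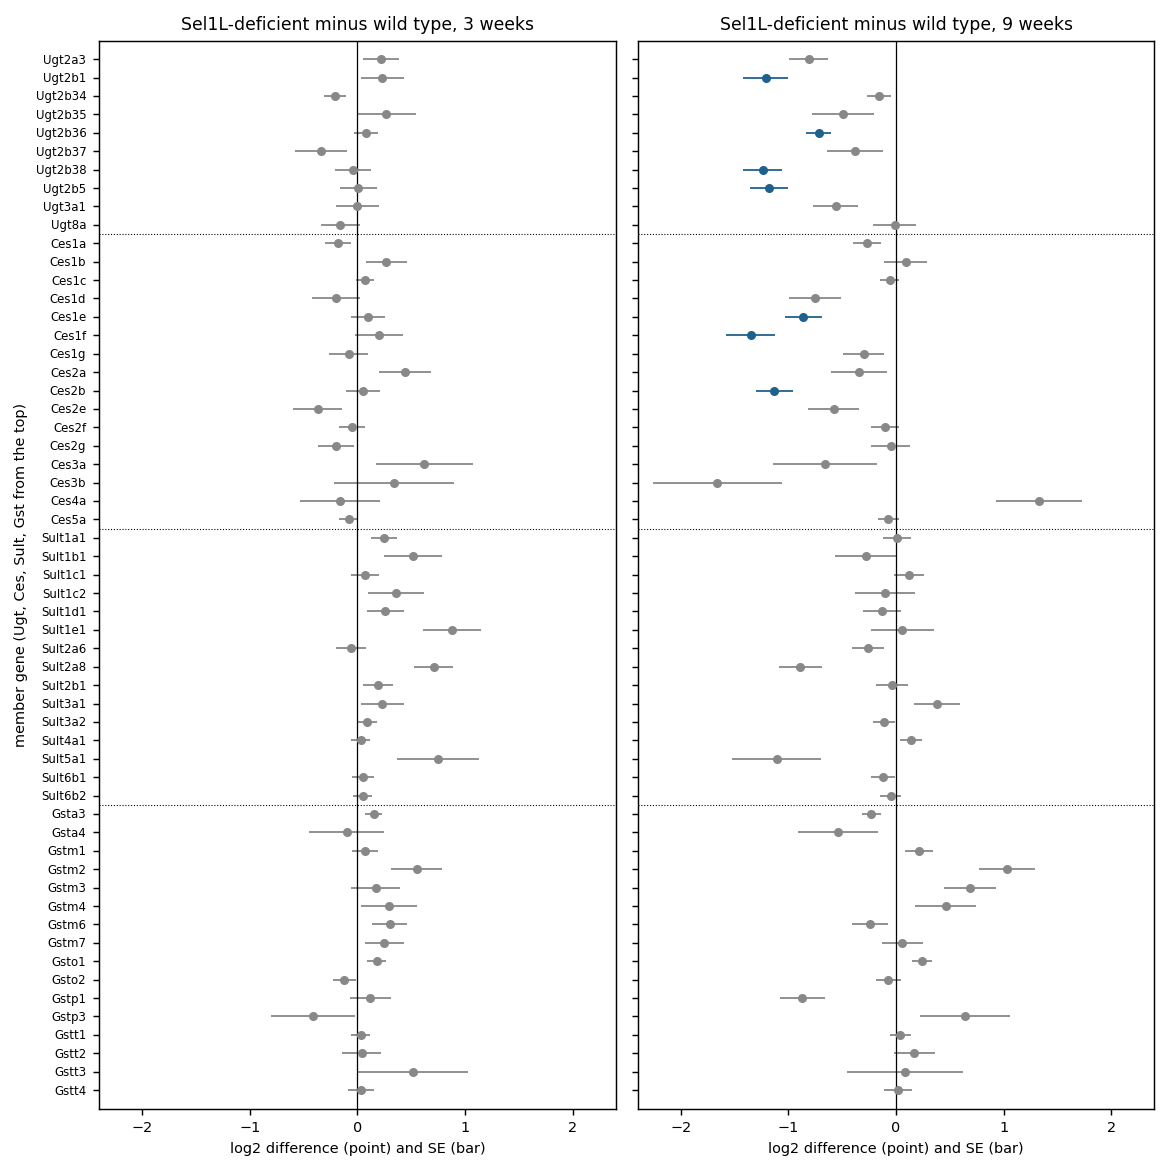
Log2 difference between Sel1L-deficient and wild-type liver (point) with its SE from limma (bar) for all 57 genes at 3 weeks (left) and 9 weeks (right), in the order Ugt, Ces, Sult and Gst from the top. Genes with an adjusted p under 0.05 are in blue; the left panel has none and the right panel has 7, all below 0.

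Whether the genotype effect differed between ages was tested as an interaction. No member passed (0 of 57, limma), and 0% of all features did. An unadjusted p under 0.05 was reached by 16 members, 15 of them with the more negative effect at 9 weeks, where 10.9% of all genes with 1 symbol reached it, 4.77% with the more negative and 6.16% with the more positive effect. The smallest adjusted p was 0.144, for Sult2a8. The effect for Sult2a8 went from 0.71 ± 0.18 at 3 weeks to -0.89 ± 0.20 at 9 weeks, a change of -1.61 ± 0.27. Ugt2b1 changed by -1.44 ± 0.29 and Ces1f by -1.54 ± 0.32 (limma, adjusted p = 0.179 and 0.186), and Ces1f passed once Sel1L-deficient replicate 1 of 9 weeks was left out. The calls at 9 weeks and their absence at 3 weeks are therefore no test of a difference between the ages.

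Between 3 and 9 weeks, mRNA of several Ugt and Ces genes rose in wild-type liver. Of the 57 members, 12 rose and 0 fell (limma, adjusted p under 0.05), where 0.765% of all features rose and 1.12% fell. They were 7 of the 10 Ugt genes (Ugt2a3, Ugt2b1, Ugt2b5, Ugt2b36, Ugt2b37, Ugt2b38 and Ugt3a1), 3 Ces genes (Ces1f, Ces2b and Ces3b), Sult2a8 and Gstp1. This comparison shares its 3 wild-type livers of 9 weeks with the genotype comparison of that age, so the 2 sets of values are not independent. With the replicate number as a block the count was 5, and 0 with the numbers of the array names as a block.

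Ces3b had the largest rise, from 9.12, 6.89 and 7.79 to 11.07, 10.98 and 10.85 (3.03 ± 0.60, 8.18-fold, limma, adjusted p = 0.0299). Ces1f rose from 8.16, 8.01 and 7.86 to 10.28, 10.35 and 10.04 (2.22 ± 0.23, 4.65-fold, limma, adjusted p = 0.00126). Ugt3a1 rose from 7.29, 6.91 and 7.58 to 8.89, 8.51 and 9.34 (1.65 ± 0.21, 3.14-fold, limma, adjusted p = 0.00329). None of the wild-type livers of 3 weeks reached the range of 9 weeks in these genes. Features annotated to both Ugt3a1 and Ugt3a2, outside the selection, rose less, 1.45-fold, 1.21-fold and 1.47-fold (limma, adjusted p = 0.0117, 0.286 and 0.0132). Their means over all livers were 10.51, 10.52 and 10.44, above the 7.89 of the Ugt3a1 feature, so the size of the Ugt3a1 rise is uncertain. Sult2a8 rose 3.05-fold, Ugt2b5 2.89-fold, Ugt2b38 2.86-fold and Gstp1 2.66-fold, from 10.70, 10.85 and 10.54 to 11.84, 12.24 and 12.24. The call for Ces3b is weak, since it missed the threshold without wild-type replicate 2 or 3 of 3 weeks and without any single wild-type liver of 9 weeks.

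In Sel1L-deficient liver none of the 57 members passed between 3 and 9 weeks (limma), where 0.0759% of all features rose and 0.0787% fell. An unadjusted p under 0.05 was reached by 21, of which 5 were higher and 16 lower at 9 weeks, where 6.29% of all genes with 1 symbol were higher and 5.75% lower at that threshold. Sult2a8 read 9.05, 9.12, 9.72 and 9.52 at 3 weeks and 9.59, 9.08 and 9.40 at 9 weeks, a difference of 0.00 ± 0.18. Ugt2b1 differed by -0.12 ± 0.20, Ugt2b36 by -0.12 ± 0.11, Ugt2b5 by 0.35 ± 0.17, Ugt2b38 by 0.32 ± 0.17 and Ces1f by 0.67 ± 0.22. Ugt2b37 differed by 1.15 ± 0.24 without overlap (limma, adjusted p = 0.107), close to its rise of 1.20 ± 0.26 in wild type. Ces3b differed by 1.03 ± 0.56, Gstp1 by 0.42 ± 0.19, Ugt2a3 by 0.24 ± 0.17 and Ces2b by -0.02 ± 0.16. The difference in Sel1L-deficient liver came nearest to the threshold for Ugt3a1, from 7.18, 7.14, 7.48 and 7.24 to 8.53, 8.26 and 8.27 (1.09 ± 0.20, limma, adjusted p = 0.0631). In the features annotated to both Ugt3a1 and Ugt3a2 it was smaller, 0.25 ± 0.08, 0.16 ± 0.10 and 0.24 ± 0.09. Ces1b read 9.39, 9.36, 9.44 and 9.35 at 3 weeks and 9.09, 8.25 and 8.09 at 9 weeks (-0.91 ± 0.19, limma, adjusted p = 0.107), and passed when replicate 1 of 9 weeks was left out.

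A further 15 features carry several symbols with at least 1 of these families among them; they are outside the 57 genes and were looked at after their values were known. Among these 15 the largest age difference was in a feature of Sult2a1 and Sult2a2, hydroxysteroid and bile acid sulfotransferases. It read 9.39, 10.32 and 9.87 in wild-type livers of 3 weeks and 4.37, 2.55 and 3.02 at 9 weeks, a fall of 93.7-fold (limma, adjusted p = 0.000485). In Sel1L-deficient liver it read 10.19, 9.98, 9.82 and 10.16 and then 2.52, 4.81 and 3.68, a fall of 82.5-fold (limma, adjusted p = 0.00109). Most of the 9-week values lie below the array medians, so both folds are lower bounds if these are background, and the genotypes overlapped at both ages. Another feature, annotated to Sult2a1, Sult2a2 and Sult2a4, gave a smaller fall, 23.4-fold in wild-type and 20.5-fold in Sel1L-deficient liver (limma, adjusted p = 3.55e-05 and 7.06e-05).

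The feature of the Ugt1a locus, which is annotated to 8 symbols including Ugt1a1, the bilirubin glucuronosyltransferase, read 9.28, 9.17 and 9.01 in wild-type and 9.00, 8.86 and 8.67 in Sel1L-deficient livers at 9 weeks (-0.31 ± 0.12, limma, adjusted p = 0.245). A feature of Gsta1 and Gsta2, alpha-class enzymes, read 6.05, 6.00 and 5.79 in wild-type and 5.14, 5.90, 7.15 and 8.70 in Sel1L-deficient livers at 3 weeks (0.77 ± 0.66, limma, adjusted p = 0.826). Here too replicates 3 and 4 were the high livers. The feature shared by Pomt2 and Gstz1, a gene of tyrosine breakdown, differed by -0.19 ± 0.09 at 9 weeks.

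**Figure D5:**
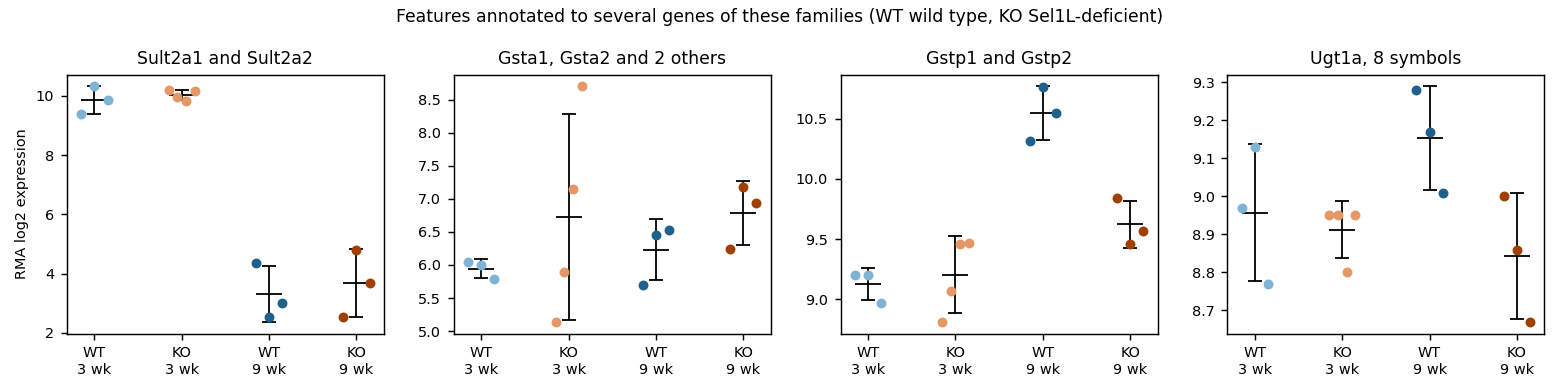
RMA log2 expression of 4 features annotated to several genes of these families, in each liver (points) with the group mean and SD (bars), by genotype and age. Axes are log2, differ between panels and do not start at 0. Sult2a1 and Sult2a2 drop with age in both genotypes, Gsta1 and Gsta2 spread widely in the Sel1L-deficient livers of 3 weeks, and Gstp1 and Gstp2 are lower in Sel1L-deficient liver at 9 weeks.

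Genes that supply the enzymes with their co-substrates gave no call at 9 weeks: 0 of 16 for glutathione, 0 of 9 for UDP-glucuronate and 0 of 10 for the sulfate donor PAPS (limma). Their list medians were -0.096, -0.21 and 0.033. Ugp2, which makes UDP-glucose, differed by -0.73 ± 0.18 (limma, adjusted p = 0.0722), and 8 of the 9 genes of UDP-glucuronate supply lay below 0. Ggct, which breaks down gamma-glutamyl products of glutathione, differed by 0.87 ± 0.20 (limma, adjusted p = 0.0603) and Gclc, the catalytic subunit of the first enzyme of glutathione synthesis, by -0.66 ± 0.21 (limma, adjusted p = 0.167). Papss1, which makes PAPS, differed by 0.52 ± 0.21 (limma, adjusted p = 0.277).

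Other conjugation enzymes did include calls. Of 21 measured, 5 fell and 0 rose at 9 weeks (limma): Glyat, which conjugates glycine (-0.56 ± 0.08, adjusted p = 0.0121), Hnmt, which methylates histamine (-0.84 ± 0.17, adjusted p = 0.0381), and Mgst1, Inmt and Ephx2. Of 13 efflux carriers, which export conjugates and sterols, 3 fell: Abcg8 (-0.73 ± 0.11, limma, adjusted p = 0.0131), Abcg5 (-0.86 ± 0.14, limma, adjusted p = 0.0196) and Abcg2. Among 14 other serine hydrolases and lipases, the arylacetamide deacetylase Aadac fell by 0.78 and lipoprotein lipase, Lpl, rose by 1.14 on the log2 scale (limma, adjusted p = 0.035 and 0.0378). The list medians were -0.094, -0.075 and -0.10, all near 0. Among all features 0.484% were called lower and 1.03% higher at 9 weeks.

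Regulators of these genes gave 0 calls of 18, and targets of the oxidative stress factor NRF2 outside the families 0 of 18 (limma, 9 weeks). Nr1h4, the bile acid receptor FXR, differed by -0.46 ± 0.12 (limma, adjusted p = 0.106) and the gene of NRF2 itself, Nfe2l2, by -0.05 ± 0.09. The NRF2 target Nqo1 differed by 0.30 ± 0.28. Nfe2l2 and Nqo1 were not named by rule. Of the NRF2 targets, 8 had a difference above 0 and 10 below (median -0.112). Of the regulators, 4 had a difference above 0 and 14 below (median -0.09). Among 9 P450 genes listed as CAR and PXR targets, 6 had a difference above 0 and 3 below, with a median of 0.528. Only Cyp2b9 was called, and it was higher (3.23 ± 0.56, limma, adjusted p = 0.0232). The liver means of the list at 9 weeks were 7.32 to 7.63 in wild-type and 7.79 to 9.07 in Sel1L-deficient livers. At 3 weeks 8 of the 9 genes had a difference above 0 (median 0.36), without a call. Cyp2b9 and Cyp2b13 are also in the female-biased list, so these lists are not independent. A part of CAR or PXR was not tested.

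Sex-biased liver genes outside the families moved with the 9-week result. Of 13 male-biased genes measured, 9 fell and 0 rose, with a list median of -1.916, and of 12 female-biased genes 4 rose and 0 fell, with a median of 0.77 (limma). Among all features 0.484% were called lower and 1.03% higher, and the median over all genes with 1 symbol was -0.008. Cyp4a12a was lower by 4.14 ± 0.61 and Cyp2d9 by 2.10 ± 0.31 in log2 units, and Hao2 was higher by 2.13 ± 0.29 (limma, adjusted p = 0.0129, 0.0129 and 0.0121). The mean of the male-biased list per liver was 9.48 to 10.22 in wild-type and 6.32 to 8.32 in Sel1L-deficient livers at 9 weeks, and 5.38 to 6.30 over both groups at 3 weeks. The part of this shift in the Ugt, Ces and Gstp1 values was not tested.

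Of 8 markers of periportal hepatocytes, 1 (Cdh1) was called lower at 9 weeks (limma), where 0.484% of all features were. All 8 markers had a difference below 0, with a median of -0.906. Their mean per liver was 10.16 to 10.37 in wild-type and 9.28 to 9.77 in Sel1L-deficient livers, and no marker was below the median of all features. Of 10 pericentral markers none was called, with a median of 0.117 and liver means of 8.34 to 8.69 against 8.66 to 8.73. Of the measured markers of Kupffer (8), endothelial (7), stellate (6), bile duct (5) and red cells (2), 0 were called at 9 weeks (limma). Krt19, Krt7, Epcam and Cftr of the bile duct list were below the median of all features by their mean over all livers. The 2 red cell markers had a median of -0.649, with liver means of 5.32 to 5.87 in wild-type and 4.70 to 5.27 in Sel1L-deficient livers, again without overlap. The part of the periportal and red cell values in the Ugt and Ces values was not tested.

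Promoters were found in the RefSeq table for 50 of the 57 members, including 5 of the 7 called genes. Within the 300 bases around the start, on either strand, TGACNNNGC, the core of the NRF2 element, was present in 4% of the members and 14% of all 27025 genes, and GCGTG, the core of the AHR element, in 14% against 35.2%. TTCNNNGAA, a STAT5 motif, was present in 6% against 9.55%, and TGACGTGG, a motif of XBP1 and ATF6, in 2% against 0.714%. That 2% is 1 promoter of 50, of Sult2b1, whose mean of 1.95 lies below the median of all features. GTTAAT, part of the HNF1 motif and searched after the promoters had been read, was present in 18% against 8.24%. The promoters of Ugt2b1, Ugt2b5, Ugt2b36, Ugt2b38 and Ces1e hold none of these letters, and no match says only that they are not in this window.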

How the data were processed

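Liver RNA (100 ng per liver, integrity number above 8 per the labels' protocols) was hybridised to Affymetrix whole-transcript arrays, 1 per mouse. The authors' deposited log2 expression values come from RMA, per the submitters' processing notes. Its version, the probe set definition and the genome build are not stated in the sources used here, and there were no detection calls to use. RMA equalises the arrays, so a shift common to most genes is largely removed.

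For a gene with more than 1 feature, that with the highest mean was used. All 35556 features were fitted with limma 3.58.1 in R 4.3.3 (1 mean per group over 13 livers, eBayes, two-sided, Benjamini-Hochberg over all features, threshold 0.05). On simulated data, 69 of 100 features changed by 1 log2 unit and 91 of 100 changed by 2 were recovered for the 9-week comparison, with 9 false calls. The simulated noise was normal and independent, with 1 SD per feature for all livers. Livers that vary more than others or deviate in many genes together were not simulated, so recovery in the real data may differ. Precision is limited by the number of arrays.

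The 57 genes and all lists were chosen with earlier results of these data known, so no list was tested. Genes named by rule were Sel1l, called members, per family the largest differences without overlap (up to 3), the largest called age changes (up to 2) and the 3 highest means, and up to 2 genes per pathway list; further members are named to complete a family. Protein identity, a part of that rule, was not used here. Promoters are from RefSeq (GRCm38.p6), where all 57 gene numbers matched. Alternatives were the features tested, plate column, replicate block, dim-feature filter, variance model, array weights, centring, samples fitted and each liver left out. Replicate numbers are those of the titles; both 9-week livers titled replicate 3 carry a 4 in their array names. This leaves the pairs within an age as they are and changes those across ages, so the block on array-name numbers was added after seeing the data. Livers of the same number did not deviate together by either numbering (correlations between -0.019 and 0.071), so the numbers were not treated as pairs.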

Additional observations from a re-analysis of the deposited data

Results flagged for a closer look

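Ces1f in the Sel1L-deficient livers of 3 weeks read 7.83, 8.36, 8.28 and 8.35. The value of 7.83, in replicate 1, lay apart from the other 3 livers by 0.852 of the group's range, more than Dixon's critical value for 4 samples allows. In this check of 24 members, chance marks about 1 in 20 groups. Ces1f was not called between genotypes at 3 weeks.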

How the results depend on the processing

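The members called at 9 weeks kept their sign under every alternative. Of the 7 members called at 9 weeks, Ugt2b5 lost its call under 4 of 21 alternatives and Ces1e under 11. The count of 7 became 11 with only 1-symbol features tested, and 0 with only the 2 groups compared; leaving out 1 liver gave 0 to 10. The replicate block also gave 0 (0 of all features), against 539 features in all without it. At 3 weeks the count was 0 under every alternative. The interaction gave 1 member (Sult2a8) with 1-symbol features and 0 to 1 with a liver left out. The wild-type age count of 12 became 5 with the replicate block, 0 with the replicate block on array-name numbers (added after seeing the data; only 2 pairs share a number there) and 7 with only the 2 groups compared (9 to 13 with a liver left out). The Sel1L-deficient age count of 0 became 3 with 1-symbol features, 1 above the median of all features and 2 with array weights (0 to 1 with a liver left out). Over all features, the 9-week count was 703 with 1-symbol features, 294 with the plate column as a block, 859 above the median of all features, 1106 with array weights, 1 with only the 2 groups compared and 18 to 1178 with a liver left out.

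Over members above the median of all features, family medians moved to 0.44 (Sult, 3 weeks), 0.12 (Gst, 9 weeks), -0.20 (Sult, 9 weeks) and -0.46 (Ces, 9 weeks). With 1 liver left out, they ranged at 3 weeks from 0.03 to 0.21 (Gst), -0.03 to 0.06 (Ugt), 0.16 to 0.23 (Sult) and -0.06 to 0.12 (Ces), and at 9 weeks from 0.01 to 0.12 (Gst), -0.73 to -0.58 (Ugt), -0.14 to -0.00 (Sult) and -0.41 to -0.28 (Ces). The cause of these moves was not tested. Signal over background limits the 16 members below that median.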
